A study of Arabidopsis thaliana with 24 samples.

Results

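The cysteine-rich receptor-like kinases (CRKs) of *Arabidopsis thaliana* were followed in local and systemic leaves under a water or a diphenyleneiodonium (DPI) drop, with and without high light. The members were chosen by locus: 40 loci listed as CRKs, all of which were among the 32833 genes of the deposited table. RefSeq gives a CRK symbol to 38 of them and lists CRK9 (AT4G23170) and CRK17 (AT4G23250) under other symbols. The rule itself used no measured value, but the members were chosen with earlier results of these data known. Of the 40, 36 were above the detection floor in all 3 libraries of at least 1 group and 29 were so in every group, the floor being set at 3 reads in a library. In a water-treated local leaf, high light raised the steady-state level of 24 of the 35 tested members, against 17.9% of all tested genes. Of these 24, 22 would have passed the filter on low values without the lit group. Under DPI the same light lowered 16 members and raised 9, against 15.9% and 17.9% of all tested genes. DPI without light stress raised 28 in the local leaf, against 21.5%.

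CRKs are receptor-like kinases of the plasma membrane, with cysteine-rich repeats of the DUF26 type outside the cell, a membrane-spanning stretch and a kinase domain inside. They are a large family in Arabidopsis and are known for roles in pathogen defence, cell death and the response to reactive oxygen species (ROS) in the apoplast, the space outside the plasma membrane. Many members are induced by salicylic acid, pathogens or ozone. Respiratory burst oxidase homologue D (RBOHD), the NADPH oxidase that makes apoplastic superoxide, is a flavin enzyme, and flavin enzymes are what DPI inhibits.

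All plants were wild-type Col-0, 4 to 5 weeks old, grown at 23 °C with 8 h of light of 50 µmol m−2 s−1 and 16 h of dark. A drop of 0.3% agarose with water or 50 mM DPI sat for 15 min midway between the local and the systemic leaf, so that the control groups carried a drop as well. The local leaf then received high light of 2000 µmol m−2 s−1 for 8 min or none. Local and systemic leaves were collected, the systemic leaf itself receiving no high light. Both leaves were taken from treated plants, so local and systemic libraries may share plants. A result seen in both leaves is therefore not an independent repeat. Control groups were collected at the start of the light period and lit groups at its end. Each light response thus also includes 8 min more since the drop was placed. The part of this added time in the light responses and interactions was not tested. The 8 groups (water or DPI, control or high light, local or systemic) had 3 replicates each, and each of them pooled leaves from many plants, so that p-values measure the spread between pools.

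Total reads per library ranged from 13492454 to 26913744, with a median of 17764651.5. Values are normalized counts, reads of a gene divided by the size factor of the library, and 3 reads corresponded to 2.00 to 4.27 normalized counts, a floor that covers counting error only. Leaf mesophyll markers (RBCS1A, LHCB2.1 and LHCB1.3) summed to 582800 to 783300 normalized counts, and 3 root markers (CASP1, COBL9 and EXP7) to at most 2.62. In whole leaves, fewer cells of a type and less RNA per cell cannot be told apart.

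The remaining 4 members gave no signal above the floor in any group. CRK33 was at 0 reads in all 24 libraries, and CRK25, CRK30 and CRK32 reached at most 1.04, 3.30 and 1.65 normalized counts in a library. CRK31 was above the floor in at least 1 group, with group means of 4.54 to 8.74, but did not pass the filter of 10 normalized counts in 3 libraries and was not tested. The 35 other members passed the filter and were tested among 18314 genes. For 3 of them passing depended on the libraries of a single group where they were high: CRK26 and CRK20 would not have passed without the water-treated local leaf in high light (CRK20 also not without that of DPI), and CRK27 not without the DPI control local or the water high light systemic group.

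Per kilobase of transcript, the members spanned a wide range in the water control local leaf. CRK21 had the highest level, 902 ± 33.0 normalized counts per kb (SD, n = 3), followed by CRK40 with 634 ± 7.62, CRK42 with 528 ± 18.3, CRK10 with 496 ± 16.7, CRK41 with 442 ± 14.7 and CRK2 with 410 ± 33.7. The means of CRK41 and CRK2 lay within 1 SD of CRK2 of each other, whereas CRK21 stood well above CRK40. At the other end, CRK38 had 1.93 ± 1.03 and CRK26 0.27 ± 0.24 normalized counts per kb, and none of the 3 libraries of this group had CRK26 above the floor. The plot of levels per kb shows that the order in the systemic leaf was close to that in the local leaf for the abundant members, while CRK7, CRK13, CRK23 and CRK37 lay further to the right in the systemic leaf.

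**Figure D1:**
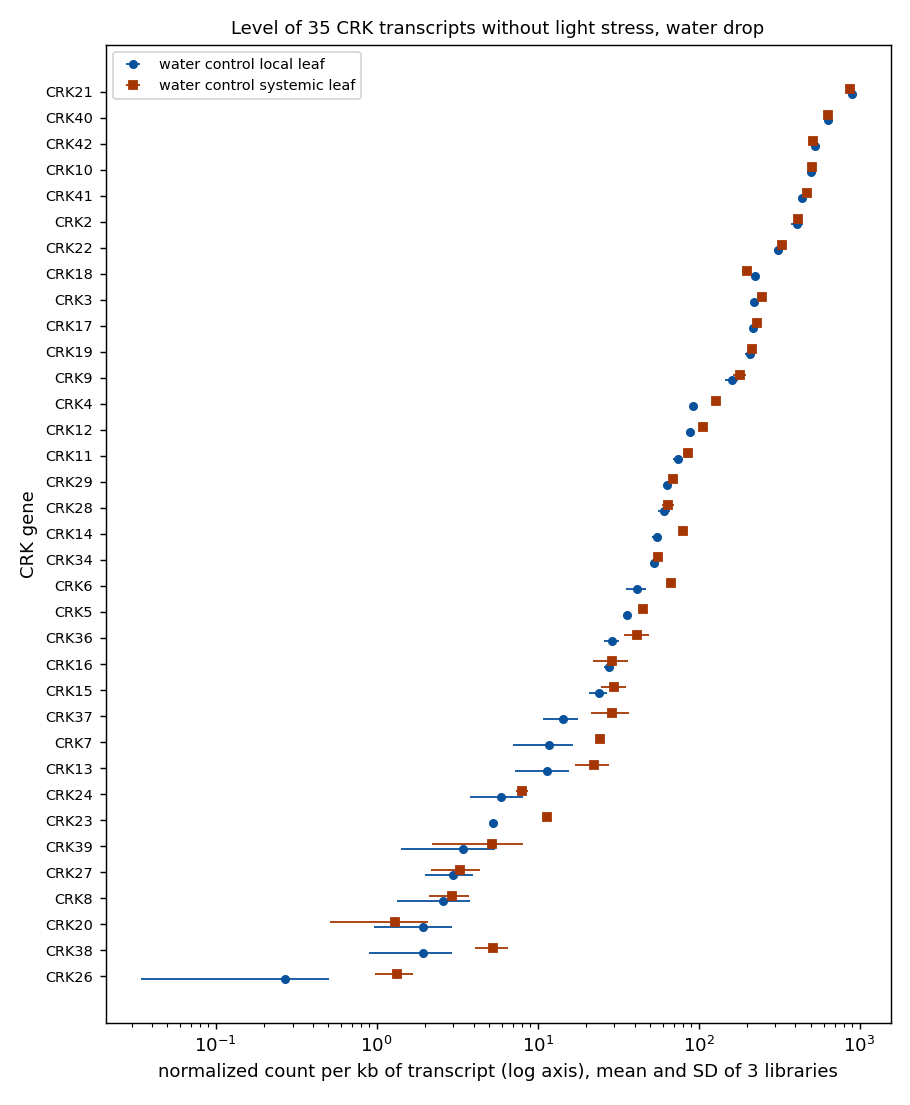
Normalized count per kb of transcript (log axis) of the 35 tested CRK transcripts in the water control local leaf (circles) and water control systemic leaf (squares), as mean and SD of 3 libraries. CRK21 is at the top with 902 per kb in the local leaf and CRK26 at the bottom with 0.27.

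By position, 36 of the 40 members lie on chromosome 4 and 34 stand in 5 tandem runs with at most 2 other genes between neighbouring members. The largest run holds 20 members, CRK5 to CRK24, all of which were tested. The next in size are CRK36 to CRK40, all tested, and CRK30 to CRK34, in which only CRK34 was. The authors do not say how reads that fit several genes were counted. Transcripts of 25 members shared no stretch of 75 bases, the read length, with another gene, and 8 shared over 10% of such stretches: CRK16 (29.0%) with CRK17 (20.8%), CRK6 (16.8%) with CRK8 (10.6%), CRK28 (16.1%) with CRK29 (13.4%), and CRK13 (11.4%) with CRK22 (11.5%). Levels of these 8, and of members that share less, are uncertain by an amount that the shares do not bound, since a partner can be far more abundant. In the water control local leaf the means were 29.9 normalized counts for CRK13 and 812 for CRK22, and 55.3 for CRK16 and 654 for CRK17. They were 10.3 for CRK8 and 106 for CRK6, and 157 for CRK28 and 196 for CRK29. CRK39 shared only 2.61% of its stretches with CRK40, but the means in the same group were 8.23 for CRK39 and 1798 for CRK40. How much of each level came from reads of the partner was not tested.

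The light response under water was examined first, as the response that a drop without inhibitor allows. In the local leaf 24 members rose and 1 fell after 8 min of high light, with a median log2 change of 0.82 over the 35 tested. Among all 18314 tested genes 17.9% rose and 14.4% fell, with a median of 0.00. The rises included CRK6 (AT4G23140) and CRK7 (AT4G23150), which protect against apoplastic ROS, CRK13 (AT4G23210), whose overexpression raises salicylic acid and resistance to bacteria, and CRK36 (AT4G04490), which acts with the immune kinase BIK1 on RBOHD. Of the 24 that rose, 22 would have passed the filter without the lit group, the others being CRK20 and CRK26.

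CRK7 had 37.3, 16.0 and 26.1 normalized counts in the water control local leaf and 74.3, 73.9 and 76.6 after light. It rose by 1.55 ± 0.21 on the log2 scale (SE; adjusted p = 7.12e-08) and every lit library was above every control library. CRK6 went from 111, 90.2 and 118 to 255, 296 and 248 normalized counts, a rise of 1.32 ± 0.10 (adjusted p = 2.63e-14). CRK13 went from 42.3, 26.3 and 21.2 to 91.8, 96.8 and 73.8, a rise of 1.56 ± 0.19 (adjusted p = 1.36e-08). All lit libraries of CRK6 and CRK13 were above all control libraries. CRK36 rose from 73.6, 63.9 and 59.5 to 133, 124 and 115 normalized counts, by 0.91 ± 0.15 (adjusted p = 3.76e-06).

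CRK10 (AT4G23180) and CRK11 (AT4G23190) are known as salicylic acid-induced kinases. CRK10 went from 1139, 1127 and 1199 normalized counts to 2800, 2614 and 2620, a rise of 1.21 ± 0.04 (adjusted p = 1.83e-25) that was far wider than the spread in either group. CRK11 rose by 0.82 ± 0.08 (adjusted p = 1.88e-10), from a mean of 180 ± 11 to 317 ± 4.9 normalized counts (SD, n = 3). CRK5 (AT4G23130), described in abscisic acid signalling and leaf senescence, rose by 1.19 ± 0.11 (adjusted p = 1.90e-11) from 83.4 ± 0.67 to 192 ± 26. The largest changes by the fit were those of CRK26 (AT4G38830) and CRK39 (AT4G04540), both at low level. CRK26 had 0, 0.94 and 0.81 normalized counts in control and 24.1, 16.7 and 18.9 after light, at least 7.2-fold higher when set against the floor of 3 reads per library. Since CRK26 passed the filter through the lit group, this is given as a description. CRK39 went from 12.1, 2.82 and 9.78 to 35.0, 27.1 and 31.2 normalized counts (1.97 ± 0.39, adjusted p = 9.23e-05), and CRK14 from 109 ± 7.9 to 324 ± 32 (1.56 ± 0.08, adjusted p = 5.43e-19).

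Of the members known to work with RBOHD or the flagellin receptor, CRK2, CRK28 and CRK29 were not called in the lit local leaf. CRK2 (AT1G70520), which phosphorylates RBOHD, had 985 ± 81 normalized counts in control and 1037 ± 43 after light (0.08 ± 0.05, adjusted p = 0.300). CRK28 (AT4G21400), which associates with the flagellin receptor FLS2 and with CRK29, had 157 ± 13 and 129 ± 14 (-0.28 ± 0.12, adjusted p = 0.0577), and CRK29 (AT4G21410) had 196 ± 9.7 and 193 ± 25 (-0.03 ± 0.10, adjusted p = 0.865). CRK42 (AT5G40380) was the member that fell, from 1404, 1477 and 1383 to 1252, 1222 and 1266 normalized counts (-0.19 ± 0.04, adjusted p = 0.000678). CRK20 (AT4G23280), whose overexpression causes cell death, had 4.12 ± 2.1 normalized counts in control and 10.8 ± 3.8 after light, a low level near the floor. By the fit it rose by 1.21 ± 0.46 and was called. Since CRK20 passed the filter through the lit local groups, its rise is given as a description.

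Of these 25 calls 21 held with any single library left out. CRK20 lost its call (adjusted p of 0.0994 to 0.153) without water control replicate 1 or 2 or water high light replicate 1 or 2 of the local leaf. CRK8 lost it (0.112 to 0.324) without control replicate 2 or high light replicate 1 or 3, CRK17 (0.0724 to 0.118) without control replicate 3 or high light replicate 1 or 2, and CRK18 (0.0750 and 0.120) without high light replicate 2 or control replicate 3. Calls were gained by CRK2 (0.0472) without control replicate 1, by CRK28 (0.0368 and 0.0423) without control replicate 3 or high light replicate 1, and by CRK24 (0.0239 and 0.0398) without control or high light replicate 1.

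Markers of leaf cell types moved in the same libraries. All 3 guard cell markers (FAMA, KAT1, MYB60) fell after light in the water local leaf, their sum going from 934.3 to 1074 normalized counts across control libraries to 719.3 to 750.4, and both epidermis markers (ATML1, PDF1) fell, from 3038 to 3176 to 2242 to 2378. The epidermis sum was mostly ATML1, which changed by -0.39 on the log2 scale. PDF1 went from a mean of 108 to 0.71 (-6.06), and in the water systemic leaf it rose from 31.7 to 87.5 (1.43). Both xylem markers (XCP1, XCP2) fell, from 450.4 to 560.5 to 261 to 338.9, and 1 of 2 phloem companion cell markers rose, the sum of the pair going from 2447 to 2577 to 3140 to 3225. Of the 3 mesophyll markers 2 fell, and their sum, 668500 to 764600 in control, was 600800 to 620000 after light. Under DPI the same lists had local sums of 852 to 945.2 in control and 641.9 to 698.1 after light for guard cells, 2431 to 2554 and 2216 to 2319 for epidermis, 340.9 to 441.2 and 326 to 417.7 for xylem, 3122 to 3295 and 3798 to 3961 for phloem, and 584200 to 624200 and 582800 to 623900 for mesophyll. The part of these shifts in the CRK results was not tested.

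The DPI drop was meant to stop the ROS wave, the spread of ROS production from the lit to the distant leaf. Under DPI, 9 members rose and 16 fell in the lit local leaf against the unlit one, with a median log2 change of -0.29, while among all tested genes 17.9% rose and 15.9% fell. The lit leaves were also collected later after the DPI drop than the unlit ones, as given above. The comparison of lit with unlit leaves under DPI shares no library with that under water. Of the 24 members raised by light under water, 6 were also raised under DPI (CRK10, CRK11, CRK12, CRK19, CRK40 and CRK41), 13 were lowered (CRK3, CRK4, CRK5, CRK6, CRK7, CRK8, CRK13, CRK15, CRK18, CRK23, CRK36, CRK37 and CRK39) and 5 were not called (CRK9, CRK14, CRK17, CRK20 and CRK26). CRK42, lowered under water, was raised.

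CRK7 fell from 194, 198 and 239 normalized counts in the DPI control local leaf to 21.4, 15.1 and 19.2 after light, a log2 change of -3.44 ± 0.21 (adjusted p = 2.47e-17) or 10.9-fold lower. CRK37 (AT4G04500) fell from 243, 238 and 272 to 27.0, 23.7 and 37.4 normalized counts (-3.07 ± 0.19, adjusted p = 1.03e-16). For both, the lit DPI libraries overlapped the range of the unlit water libraries, and the unlit DPI libraries were far above every other local library. CRK23 (AT4G23310) fell from 65.7, 63.9 and 65.3 to 4.27, 10.8 and 13.1 (-2.79 ± 0.27, adjusted p = 2.74e-11), and CRK38 from 31.7, 16.2 and 24.5 to 4.27, 1.08 and 6.06 (-2.51 ± 0.46, adjusted p = 2.55e-05). CRK38 was at low level throughout and not called under water.

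Of the members with a described role, CRK6 fell by 2.39 ± 0.10 (adjusted p = 2.03e-22), from 443, 503 and 489 to 79.7, 100 and 92.9 normalized counts. CRK36 fell by 2.13 ± 0.15 (adjusted p = 2.68e-15), from 267, 270 and 257 to 62.6, 46.3 and 72.7, and CRK13 fell by 1.76 ± 0.19 (adjusted p = 7.57e-10), from 152, 183 and 182 to 48.4, 45.2 and 56.6. No lit library of these 3 reached an unlit one. CRK5 fell by 0.39 ± 0.11 (adjusted p = 0.00589), and CRK28 fell by 0.41 ± 0.12 (adjusted p = 0.00533), a call lost at an adjusted p of 0.0616 without DPI high light local replicate 3. CRK10 rose from 2221, 2270 and 2363 to 4072, 3979 and 4234 normalized counts (0.84 ± 0.04, adjusted p = 4.99e-20) and CRK11 rose by 0.59 ± 0.08 (adjusted p = 3.80e-07). CRK2 (0.01 ± 0.05, adjusted p = 0.919), CRK20 (0.57 ± 0.46, adjusted p = 0.366) and CRK29 (0.14 ± 0.10, adjusted p = 0.312) were not called.

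**Figure D2:**
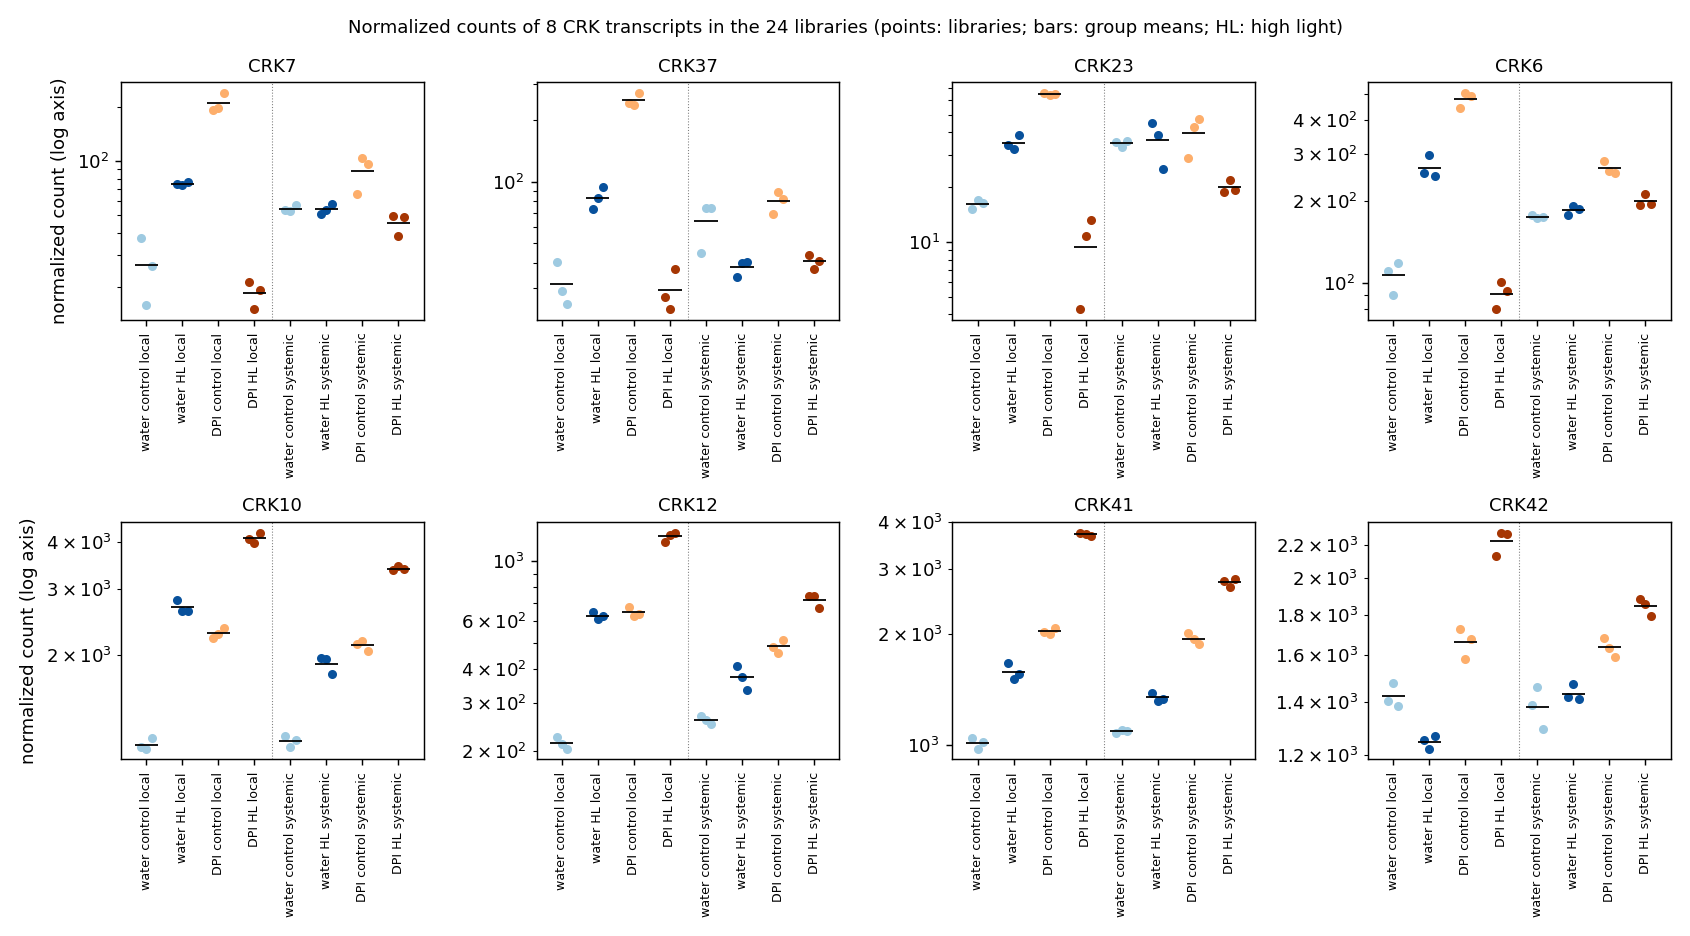
Normalized counts (log axis) of 8 CRK transcripts in each of the 24 libraries, with points for libraries and bars for group means; HL stands for high light, and the dotted line parts local from systemic leaves. In the local leaf CRK7, CRK37, CRK23 and CRK6 are highest in DPI control (group mean of 210 for CRK7) and low in DPI high light (18.5), while CRK10, CRK12, CRK41 and CRK42 are highest in DPI high light.

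This difference was tested directly as an interaction of drop and light on the log2 scale. A negative value means that light raised a transcript by a smaller factor, or lowered it by a larger one, with DPI than with water. In the local leaf it was negative for 21 members and positive for 3, with a median of -0.67, against 11.1% negative and 8.74% positive among all tested genes. The most negative values were -4.99 ± 0.29 for CRK7 (adjusted p = 5.02e-17), -4.47 ± 0.27 for CRK37 (adjusted p = 1.85e-16), -3.86 ± 0.38 for CRK23 (adjusted p = 1.55e-10) and -3.71 ± 0.14 for CRK6 (adjusted p = 5.46e-23). CRK13 (-3.33 ± 0.27, adjusted p = 1.22e-12), CRK36 (-3.05 ± 0.21, adjusted p = 7.59e-15) and CRK5 (-1.58 ± 0.16, adjusted p = 3.02e-10) were negative as well. In each of these 7 the light response changed sign between the drops.

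CRK10 (-0.37 ± 0.06, adjusted p = 4.85e-06) and CRK12 (-0.63 ± 0.09, adjusted p = 1.16e-06) rose under both drops, by less under DPI, and reached their highest local level where DPI and light were combined. CRK12 (AT4G23200) had group means of 214 ± 10 (water control), 631 ± 17 (water high light), 648 ± 27 (DPI control) and 1234 ± 50 (DPI high light) normalized counts. The 3 positive interactions were those of CRK42 (0.61 ± 0.06, adjusted p = 3.12e-10), CRK41 (0.24 ± 0.06, adjusted p = 0.00173) and CRK21 (0.20 ± 0.05, adjusted p = 0.00404). They made up 8.57% of the tested members, near the 8.74% of all tested genes. CRK41 (AT4G00970), for which no role is given here, had 1046, 979 and 1023 normalized counts in water control, 1667, 1506 and 1556 after light under water, 2027, 1998 and 2079 in DPI control and 3755, 3721 and 3670 after light under DPI. Its 4 local groups did not overlap. The interaction of CRK11 (-0.23 ± 0.12, adjusted p = 0.189), CRK2 (-0.07 ± 0.07, adjusted p = 0.614), CRK20 (-0.64 ± 0.65, adjusted p = 0.562), CRK28 (-0.12 ± 0.16, adjusted p = 0.680) and CRK29 (0.17 ± 0.14, adjusted p = 0.475) did not pass the threshold. CRK17 (-0.21 ± 0.07, adjusted p = 0.0269) was the only call of the 24 that leaving out a library ended, at adjusted p of 0.0516 to 0.0824 without water control replicate 3, water high light replicate 1 or 2, DPI control replicate 3 or DPI high light replicate 2 of the local leaf.

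**Figure D3:**
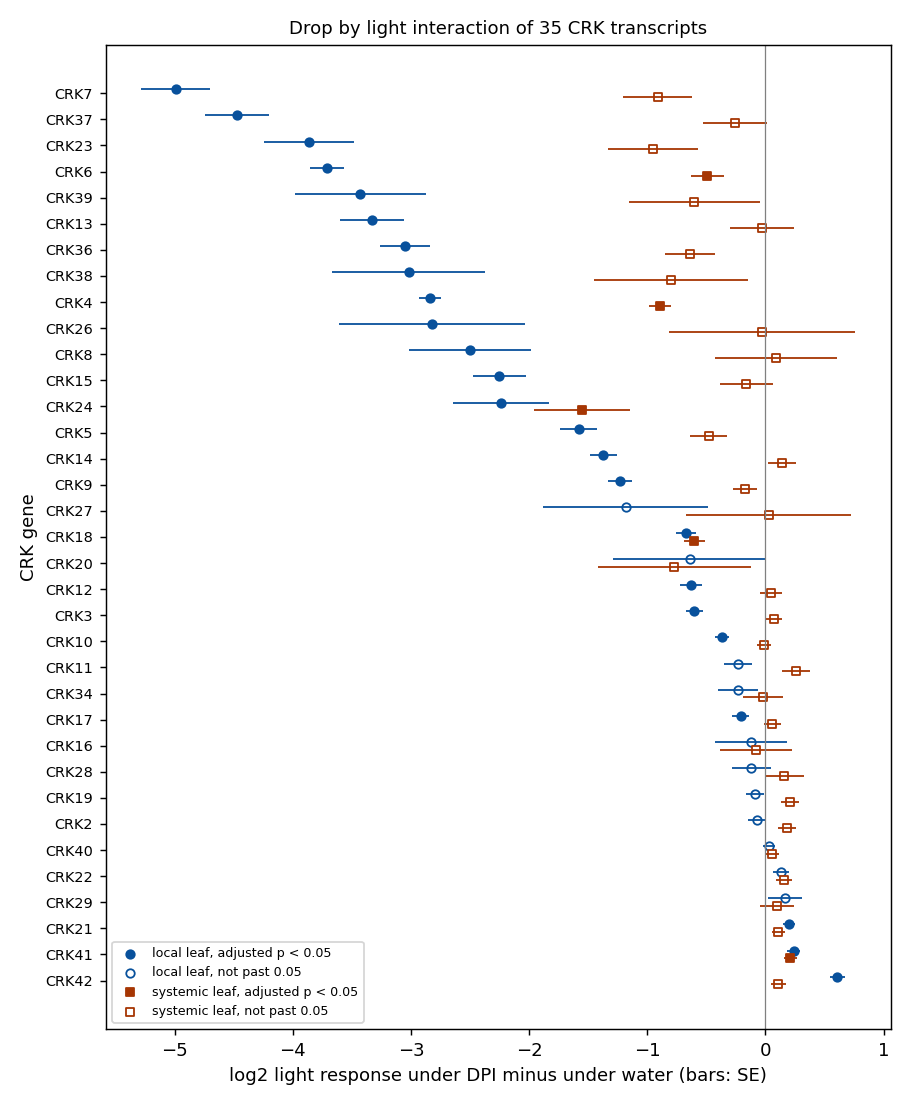
Light response under DPI minus light response under water, on the log2 scale with SE bars, for the 35 tested CRK transcripts in the local leaf (circles) and the systemic leaf (squares); filled symbols have a limma adjusted p under 0.05. Local values reach from -4.99 (CRK7) to 0.61 (CRK42) and systemic values from -1.55 (CRK24) to 0.26 (CRK11).

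DPI against water without light stress shares its DPI libraries with the light response under DPI, and its water libraries with that under water, so its values are given for themselves. In the control local leaf 28 members were higher under DPI and 2 lower, with a median log2 difference of 1.00, against 21.5% higher and 19.0% lower among all tested genes, whose median was 0.00. CRK7 was 8.08-fold higher under DPI (3.01 ± 0.21 on the log2 scale, adjusted p = 1.41e-15), CRK37 7.86-fold (2.98 ± 0.19, adjusted p = 2.86e-16), CRK39 5.94-fold (2.57 ± 0.39, adjusted p = 7.96e-07) and CRK13 5.80-fold (2.54 ± 0.19, adjusted p = 3.49e-14). CRK6 was higher by 2.17 ± 0.10 (adjusted p = 6.19e-21), CRK36 by 2.00 ± 0.15 (adjusted p = 1.67e-14), CRK5 by 1.34 ± 0.11 (adjusted p = 5.29e-13), CRK10 by 0.98 ± 0.04 (adjusted p = 4.03e-22) and CRK11 by 0.66 ± 0.08 (adjusted p = 2.29e-08). All 6 unlit libraries separated by drop for each of these.

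CRK2, uncalled in either local light response, was also higher under DPI, with 1478, 1411 and 1405 normalized counts against 1078, 949 and 929 under water (0.54 ± 0.05, adjusted p = 3.47e-11). CRK28 and CRK29, the pair that associate with each other, were the 2 members that were lower: CRK28 had 128, 118 and 118 against 162, 167 and 143 (-0.37 ± 0.12, adjusted p = 0.00938), and CRK29 had 163, 151 and 146 against 202, 202 and 185 (-0.35 ± 0.10, adjusted p = 0.00478). The pair share part of their sequence, as given above. CRK20 had 5.24 ± 0.81 against 4.12 ± 2.1 normalized counts (adjusted p = 0.587). Leaving out a library ended 2 of the 30 calls, those of CRK26 and CRK22. CRK26 (adjusted p = 0.00564) lost its call without DPI control local replicate 1 (0.0854). It had 11.3, 1.01 and 6.12 normalized counts under DPI, replicate 2 being under the floor. Its DPI mean was 2.23-fold the floor of the water group, in which no library was above the floor. CRK22 (0.15 ± 0.05, adjusted p = 0.0104) lost its call (0.0512 to 0.0648) without water control local replicate 2 or 3 or DPI control local replicate 1.

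In the systemic leaf, which received no high light itself, the response of the family under water was small. Of the 35 members 9 rose and 1 fell when the local leaf was lit, with a median log2 change of 0.05, against 7.66% higher and 3.10% lower among all tested genes. The 1 fall, 2.86% of the members, was near the share of all tested genes. All 9 that rose (CRK4, CRK5, CRK9, CRK10, CRK12, CRK14, CRK18, CRK40 and CRK41) had also risen in the local leaf, in other libraries that may share plants with these. CRK10 went from 1216, 1135 and 1190 normalized counts to 1962, 1946 and 1782 (0.68 ± 0.04, adjusted p = 1.36e-16), and CRK12 from 270, 260 and 252 to 412, 374 and 336 (0.51 ± 0.06, adjusted p = 7.63e-08). CRK18 went from 389, 412 and 443 to 577, 598 and 557 (0.48 ± 0.06, adjusted p = 8.85e-08). The groups of these 3 were apart.

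CRK37 was the member that fell, from 44.4, 73.9 and 74.2 to 34.1, 39.9 and 40.5 normalized counts (-0.70 ± 0.19, adjusted p = 0.0111), having risen in the local leaf. Its call was lost (adjusted p of 0.0651 to 0.0897) without water control systemic replicate 2 or 3 or water high light systemic replicate 1. CRK5 (0.36 ± 0.11, adjusted p = 0.0293), whose groups overlapped, lost its call (0.0510 to 0.227) without any of the 3 control replicates or high light replicate 2 or 3. The other members with a role were not called: CRK6 was at 175 ± 2.3 and 186 ± 8.0 normalized counts, CRK7 at 54.6 ± 2.5 and 54.1 ± 3.6, CRK13 at 58.6 ± 14 and 45.0 ± 3.0 and CRK36 at 94.5 ± 17 and 92.3 ± 16. Their adjusted p ranged with those of CRK2 (0.762), CRK11 (0.132), CRK20 (0.508), CRK28 (0.0781) and CRK29 (0.321) up to 0.985 for CRK7. Without water high light systemic replicate 3 CRK11 was called (0.00658), and without water control systemic replicate 1 CRK39 was (0.0436).

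Under DPI, 10 members rose and 8 fell in the systemic leaf, with a median of -0.03, against 7.15% and 4.56% of all tested genes. CRK10 rose by 0.68 ± 0.04 (adjusted p = 4.01e-16), CRK11 by 0.47 ± 0.08 (adjusted p = 6.76e-05) and CRK2 by 0.22 ± 0.05 (adjusted p = 0.00256), the last from 1306, 1286 and 1378 to 1622, 1486 and 1522 normalized counts. CRK37 fell from 69.6, 89.2 and 82.0 to 43.8, 37.2 and 40.8 (-0.96 ± 0.19, adjusted p = 0.000276), and CRK7 (-0.92 ± 0.21, adjusted p = 0.00109), CRK36 (-0.67 ± 0.15, adjusted p = 0.000947) and CRK6 (-0.40 ± 0.10, adjusted p = 0.00351) fell too. These 4 were also among those lowered by light in the local leaf under DPI, by smaller amounts here, although the difference between the leaves under DPI was not tested. Falls were also found in low transcripts: CRK38 from 15.6 ± 4.7 to 5.08 ± 2.5 normalized counts (-1.49 ± 0.46, adjusted p = 0.0249), CRK39 from 20.4 ± 3.8 to 7.14 ± 2.3 (-1.42 ± 0.39, adjusted p = 0.0105) and CRK23 from 39.6 ± 9.6 to 20.0 ± 1.6 (-0.93 ± 0.27, adjusted p = 0.0155). CRK5 (-0.12, adjusted p = 0.625), CRK13 (-0.38, adjusted p = 0.248), CRK20 (-0.18, adjusted p = 0.889), CRK28 (-0.16, adjusted p = 0.496) and CRK29 (-0.08, adjusted p = 0.742) were not called.

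Those 3 falls and the rise of CRK21 depended on single systemic libraries. CRK38 lost its call (0.0565 to 0.140) without DPI control replicate 2 or 3 or DPI high light replicate 2 or 3, CRK39 (0.0528 and 0.0619) without high light replicate 3 or control replicate 3, CRK23 (0.0575 to 0.105) without control replicate 2 or 3 or high light replicate 1, and CRK21 (0.11 ± 0.04, adjusted p = 0.0404; 0.0697 to 0.156) without any control replicate or high light replicate 1 or 2.

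The drop by light interaction in the systemic leaf was negative for 4 members and positive for 1, against 4.08% and 2.32% of all tested genes, with a median of -0.02 over the members. These were 11.4% and 2.86% of the tested members, the latter near the share of all tested genes. CRK24 had -1.55 ± 0.41 (adjusted p = 0.0125), with 17.8, 15.5 and 15.4 normalized counts in water control, 25.3, 32.3 and 26.3 after light under water, 26.8, 26.4 and 25.3 in DPI control and 14.9, 16.4 and 12.8 after light under DPI. It was thus higher after light under water in every library and lower under DPI in every library, although neither response passed the threshold by itself. CRK4 (-0.89 ± 0.09, adjusted p = 2.48e-09) had 331 ± 18 normalized counts in control and 409 ± 22 after light under water, and 532 ± 36 and 354 ± 20 under DPI, and CRK18 had -0.60 ± 0.09 (adjusted p = 2.94e-06). CRK6 (-0.49 ± 0.14, adjusted p = 0.0262) lost its call (0.0504 to 0.0821) without DPI control replicate 1, DPI high light replicate 1 or 3, water control replicate 2 or 3, or water high light replicate 2 or 3. CRK41 (0.21 ± 0.06, adjusted p = 0.0163) lost it without DPI control replicate 3 (0.0666).

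The other members with a role were not called in this systemic interaction. CRK7 had -0.91 ± 0.29 (adjusted p = 0.0520), CRK36 -0.64 ± 0.21 (0.0598) and CRK5 -0.48 ± 0.16 (0.0616), each close to the threshold. Leaving out 1 systemic library gave a call for CRK7 (0.0168 without DPI control replicate 1), CRK5 (0.0039 without water high light replicate 1), CRK36 (0.0196 to 0.0487 without water control, water high light or DPI high light replicate 1) and CRK19 (0.0425 without DPI high light replicate 3). CRK2 (0.18, adjusted p = 0.174), CRK10 (-0.01, adjusted p = 0.983), CRK11 (0.26, adjusted p = 0.247), CRK13 (-0.03, adjusted p = 0.976), CRK20 (-0.77, adjusted p = 0.626), CRK28 (0.16, adjusted p = 0.715) and CRK29 (0.10, adjusted p = 0.815) were further from it. By edgeR on recovered reads 8 members were negative and 1 positive, the added ones being CRK5, CRK7, CRK23 and CRK36.

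DPI against water in the control systemic leaf gave 19 members higher and 2 lower, with a median of 0.41, against 20.7% and 18.8% of all tested genes. Among the called members the largest differences were those of CRK12 (0.89 ± 0.06, adjusted p = 1.08e-14), CRK10 (0.85 ± 0.04, adjusted p = 6.68e-20), CRK41 (0.83 ± 0.04, adjusted p = 4.78e-20) and CRK14 (0.74 ± 0.08, adjusted p = 1.42e-09). CRK41 had 2005, 1935 and 1873 normalized counts under DPI and 1081, 1102 and 1094 under water, with no overlap. CRK5 (0.67 ± 0.11, adjusted p = 4.54e-06), CRK6 (0.60 ± 0.10, adjusted p = 4.25e-06), CRK11 (0.59 ± 0.08, adjusted p = 2.53e-07) and CRK2 (0.41 ± 0.05, adjusted p = 3.65e-08) were higher too. CRK28 (-0.49 ± 0.12, adjusted p = 0.000613) and CRK29 (-0.47 ± 0.10, adjusted p = 0.000246) were again the 2 that were lower. The pair share part of their sequence, and these libraries may share plants with those of the local leaf.

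Some members with a large difference in the local leaf had a small one here. CRK13 had 60.0 ± 9.5 normalized counts under DPI and 58.6 ± 14 under water (0.05 ± 0.19, adjusted p = 0.886), and CRK37 80.2 ± 9.9 and 64.2 ± 17. CRK7 (0.66 ± 0.21, adjusted p = 0.00894) lost its call without DPI control systemic replicate 2 (0.0706), and CRK36 (0.49 ± 0.15, adjusted p = 0.00790) and CRK15 (0.50 ± 0.16, adjusted p = 0.0108) lost theirs without water control systemic replicate 3 (0.0671 and 0.0661). CRK18 (0.20 ± 0.06, adjusted p = 0.00839) lost it without water control systemic replicate 1 (0.0723). CRK20 (1.03 ± 0.46, adjusted p = 0.0712) and CRK39 (0.80, adjusted p = 0.104) were not called, but were (0.0339 and 0.0234) without water control systemic replicate 2.

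The leaf by light interaction under water, the systemic light response minus the local one, was negative for 19 members and positive for 2, with a median of -0.61, against 10.3% and 8.52% of all tested genes. It was most negative for CRK26 (-3.77 by the fit, a value that depends on the pseudocount because both control groups were at or under the floor), CRK39 (-2.79 ± 0.55, adjusted p = 0.000188), CRK37 (-2.09 ± 0.27, adjusted p = 1.04e-07) and CRK13 (-1.92 ± 0.27, adjusted p = 7.09e-07). Negative values were also found for CRK7 (-1.56 ± 0.29, adjusted p = 7.60e-05), CRK6 (-1.23 ± 0.14, adjusted p = 4.97e-09), CRK36 (-0.95 ± 0.21, adjusted p = 0.000773), CRK5 (-0.82 ± 0.16, adjusted p = 0.000127), CRK11 (-0.61 ± 0.12, adjusted p = 0.000145) and CRK10 (-0.53 ± 0.06, adjusted p = 2.61e-09). In all of these the light response was larger in the lit leaf than in the distant one. The 2 positive values were those of CRK18 (0.30 ± 0.09, adjusted p = 0.0101) and CRK42 (0.25 ± 0.06, adjusted p = 0.00321): CRK18 rose by more in the systemic leaf, and CRK42 fell in the local leaf and was not called in the systemic one (1380 ± 83 and 1433 ± 34 normalized counts). They made up 5.71% of the tested members, against 8.52% of all tested genes.

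In the same comparison CRK2 (-0.04, adjusted p = 0.806), CRK20 (-0.62, adjusted p = 0.582), CRK28 (-0.03, adjusted p = 0.933) and CRK29 (-0.15, adjusted p = 0.541) were not called. Of the 21 calls 18 held with any single library left out. CRK3 (-0.25 ± 0.07, adjusted p = 0.0123) lost its call without water control local replicate 3 (0.0518). CRK19 (-0.21 ± 0.08, adjusted p = 0.0470) lost it in 11 of the 12 cases, all but water control local replicate 3, and CRK23 (-1.05 ± 0.38, adjusted p = 0.0472) in all but water high light systemic replicate 1 (adjusted p of 0.0507 to 0.130 and 0.0556 to 0.162).

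Without light stress and under water, 8 members were higher in the systemic than in the local leaf, against 1.58% of all tested genes, and 0 were lower by limma, edgeR or DESeq2, against 1.19%; 1 member was lower at an unadjusted limma p under 0.05. CRK7 had 53.3, 53.0 and 57.5 normalized counts in the systemic leaf and 37.3, 16.0 and 26.1 in the local leaf (1.09 ± 0.21, adjusted p = 0.000682). CRK23 was higher by 1.07 ± 0.27 (adjusted p = 0.0171), CRK37 by 0.99 ± 0.19 (adjusted p = 0.00110), CRK13 by 0.98 ± 0.19 (adjusted p = 0.00135) and CRK6 by 0.72 ± 0.10 (adjusted p = 3.89e-06). Systemic values of these members exceeded every local value. CRK23 lost its call (0.0569 to 0.0704) without water control local replicate 1 or water control systemic replicate 1 or 3, and CRK12 (0.28 ± 0.06, adjusted p = 0.00770) without water control local replicate 3 (0.0521). When only the water control groups entered the fit, 4 members were called. CRK2 (0.02), CRK5 (0.32), CRK10 (0.03), CRK11 (0.21), CRK20 (-0.49), CRK28 (0.07), CRK29 (0.12) and CRK36 (0.51) were not called, with adjusted p of 0.0512 for CRK36 to 0.929 for CRK2. CRK36 was called (0.0486 and 0.0352) without water control local replicate 1 or water control systemic replicate 3, and CRK3 (0.0378) without the latter.

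**Figure D4:**
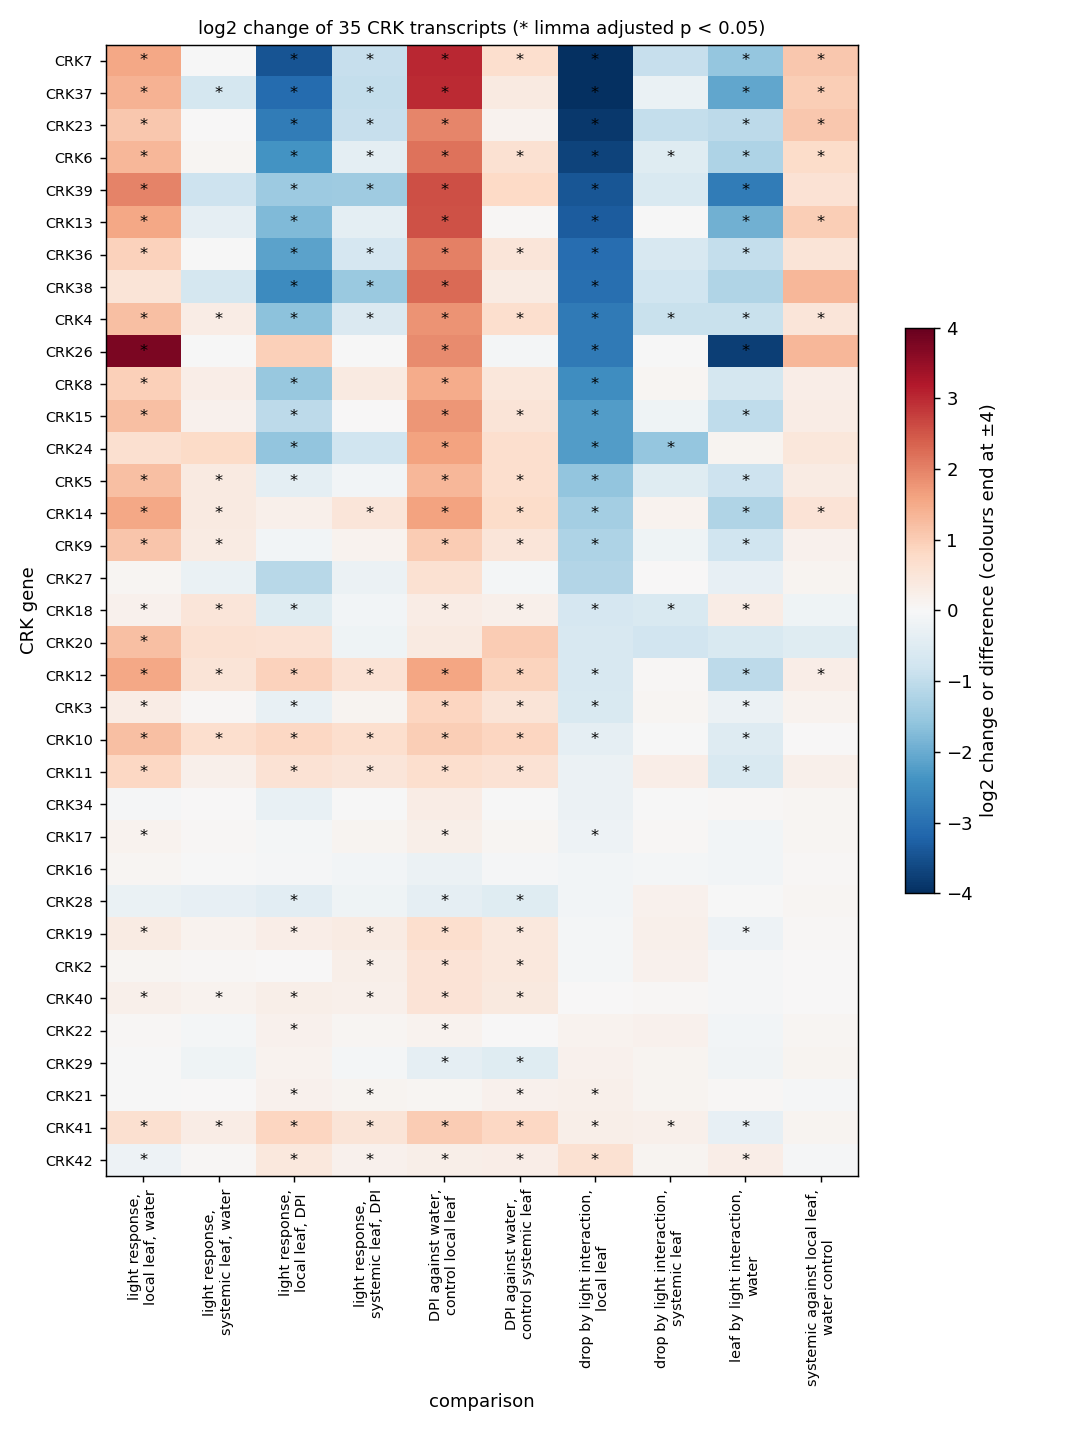
log2 change (or, for interactions, log2 difference) of the 35 tested CRK transcripts in 10 comparisons, as colour that ends at ±4, with a star where the limma adjusted p was under 0.05. Rows are ordered by the local drop by light interaction, from -4.99 for CRK7 to 0.61 for CRK42, and the members at the top are red under DPI control and blue after light under DPI.

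Across the 8 groups the members differed in where their mean was highest and lowest. The group with the highest mean was DPI control local for 16 members, among them CRK5, CRK6, CRK7, CRK13, CRK36 and CRK37, and DPI high light local for 9, among them CRK10, CRK12, CRK41 and CRK42. It was water high light local for CRK9, CRK16, CRK20 and CRK26, DPI high light systemic for CRK2, CRK11 and CRK17, water control systemic for CRK28 and CRK29, and water high light systemic for CRK18. The lowest mean was in water control local for 18 members and in DPI high light local for 11. These counts rank means only. No such ranking was made for all tested genes, so whether the counts are particular to the members was not tested. CRK16, CRK27 and CRK34 were called in none of the 10 comparisons.

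Neighbours in a tandem run did not all move alike. In the run from CRK5 to CRK24, 16 of 20 members rose with light in the water local leaf, while under DPI 6 rose and 9 fell, with CRK6, CRK7 and CRK8 lowered next to CRK10, CRK11 and CRK12, which were raised. In the run from CRK36 to CRK40, 4 of 5 rose with light in the water local leaf, and under DPI CRK36 to CRK39 fell in local and systemic leaves while CRK40 rose in both. CRK40 went from 2617, 2692 and 2671 normalized counts in DPI control to 3003, 3120 and 3216 after light in the local leaf and was the most abundant of the run per kb of transcript (634 normalized counts per kb against 1.93 to 28.9 for the others in the water control local leaf). Among the 15 tested members outside the largest run, 8 rose and 1 fell in the water local leaf, and 3 rose and 7 fell under DPI. Among all tested genes 17.9% rose and 14.4% fell in the water local leaf, and 17.9% rose and 15.9% fell under DPI. The 3 rises under DPI, 20% of these members, were thus near the share of all tested genes.

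Beside the members, 2 further lists of genes were counted. The first holds 24 receptors, kinases and other components of the oxidative burst, of which 23 were tested. In the local leaf 18 rose with light under water, against 17.9% of all tested genes, with a median log2 change of 0.54, and under DPI 11 rose and 3 fell (17.9% and 15.9% of all tested genes), with a median of 0.20. RBOHD, the oxidase itself, had 1016 ± 29 normalized counts in water control, 2425 ± 44 in water high light, 1375 ± 66 in DPI control and 2495 ± 113 in DPI high light of the local leaf (SD, n = 3), and rose under both drops (1.25 and 0.86, adjusted p = 1.06e-25 and 4.64e-20). MPK3, a kinase of the immune cascade, rose under both drops as well, from 1884 to 5503 and from 3452 to 8177 normalized counts. CALS1, a callose synthase, rose from 375 to 613 under water and fell from 808 to 410 under DPI, with an interaction of -1.69. The local interaction was negative for 10 of the 23 and for 21 of the 35 CRK members, against 11.1% of all tested genes, and these shares were not tested against each other.

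The second list holds 20 genes of salicylic acid synthesis and response, all tested. In the local leaf 19 rose with light under water, against 17.9% of all tested genes, with a median log2 change of 1.16, and under DPI 3 rose and 15 fell (17.9% and 15.9% of all tested genes), with a median of -0.45. Without light stress all 20 were higher under DPI in the local leaf (median 1.67) and 15 in the systemic leaf (median 0.63), against 21.5% and 20.7% of all tested genes. PR1, the marker gene of salicylic acid responses, had local means of 35.9 ± 5.5 in water control, 256 ± 24 in water high light, 1121 ± 116 in DPI control and 17.9 ± 0.67 in DPI high light normalized counts, and an interaction of -8.70. SARD1, a transcription factor of salicylic acid synthesis, had 120 ± 25, 616 ± 8.8, 728 ± 51 and 687 ± 54 in the same order, and its light response under DPI was not called (-0.08, adjusted p = 0.499). The local interaction was negative for 19 of the 20 genes and the systemic one for 6, against 11.1% and 4.08% of all tested genes. These counts come from the same libraries as those of the CRK members and are given beside them, with no test between the lists.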

How the data were processed

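RNA of 24 libraries (8 groups of 3, grouped by sample title) was sequenced. The authors checked reads with FastQC (version 0.11.7), aligned them with STAR (version 2.4.0.1) to TAIR10 and normalized counts with DESeq2 (version 1.20.0), as given in the submitters' processing notes and the study's methods. The counting tool and its strand setting are not given in the sources used here. The deposited values are a normalized signal, reads divided by a size factor. Dividing by the smallest value of a library gave whole reads (tolerance 0.001) for 100% of values, and size factors computed again differed by at most 4.4e-15. All columns were mapped to samples.

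Symbols, gene order, transcript lengths and shared 75-base stretches (38074 genes searched) came from RefSeq TAIR10.1, another build, so no coordinates or sequences are given.

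Levels were analysed as log2(normalized count + 1), which understates changes of low transcripts, with limma (version 3.58.1, R 4.3.3; trend; two-sided). Genes with at least 10 normalized counts in 3 libraries were tested (18314), in a fit of all 24 libraries with 16 residual degrees of freedom. Benjamini-Hochberg adjustment ran over all tested genes within each of 10 comparisons, with a threshold of 0.05. The steps were tested on simulated data.

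All members are accounted for. Each comparison names the 4 members with the largest change among the called ones that also had 1 sign across all 3 replicate numbers. It also names 11 members with a described role (CRK2, CRK5, CRK6, CRK7, CRK10, CRK11, CRK13, CRK20, CRK28, CRK29 and CRK36). Log2 change, SE and adjusted p are given for most of these, and some are left out for members not called or near the floor. Other members and genes named were chosen with their values known. The members and lists were chosen with earlier results of these data known.

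Alternatives were pseudocounts of 5 and 0.5, no filter, a mean of at least 50, TMM, quantile normalization, only the groups in the contrast, a replicate block, edgeR (version 4.0.16) and DESeq2 (version 1.42.0) on recovered reads, and leaving out each library. Figures were drawn with matplotlib (version 3.10.9).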

Additional observations from a re-analysis of the deposited data

Results flagged for a closer look

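Results below stand out because a test found that the light response differed between drops or between leaves. No group had enough libraries to look for a single library far from the others. The local light response differed between DPI and water for 24 members, the systemic one for 5, and the response under water differed between leaves for 21. Among all tested genes these differences were negative for 11.1%, 4.08% and 10.3%, and positive for 8.74%, 2.32% and 8.52%.

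In the local leaf the interaction of drop and light (the response with DPI less the response with water, in log2 units) was -4.99 for CRK7, -4.47 for CRK37, -3.86 for CRK23, -3.71 for CRK6, -3.33 for CRK13, -3.05 for CRK36, -1.58 for CRK5 and -0.37 for CRK10. In the systemic leaf it was -1.55 for CRK24, -0.89 for CRK4, -0.60 for CRK18 and -0.49 for CRK6.

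Under water the systemic light response minus the local one was -3.77 for CRK26, -2.79 for CRK39, -2.09 for CRK37, -1.92 for CRK13, -1.56 for CRK7, -1.23 for CRK6, -0.95 for CRK36, -0.82 for CRK5, -0.61 for CRK11 and -0.53 for CRK10. The value of CRK26 rests on a control group at or under the floor.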

How the results depend on the processing

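The counts of called members changed by less than 1.5 times under the alternatives, with 2 exceptions. The systemic drop by light interaction had 9 calls with edgeR in place of 5, and the systemic against local comparison under water had 4 calls in place of 8 when only its groups were fitted; the cause was not tested. With a library left out, calls ranged from 22 to 26 for the local light response under water, 8 to 10 for the systemic one, 24 to 26 and 14 to 17 under DPI, 28 to 30 and 19 to 23 for DPI against water in local and systemic control leaves, 23 to 24 and 4 to 7 for the local and systemic drop by light interactions, 19 to 20 for leaf by light, and 7 to 9 for systemic against local. Libraries of the same replicate number did not deviate together from their group means (correlations of -0.02 to 0.05 over 21 pairs), which cannot show whether they shared plants. With replicate numbers as a block the systemic interaction had 7 calls in place of 5 and no other count moved by more than 1.

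Quantile normalization shifted the split of all tested genes from 3278 higher and 2643 lower to 2469 and 4585 in the local water light response, from 1403 and 568 to 1164 and 943 in the systemic one, from 3276 and 2914 to 2532 and 4084 in the local DPI one, from 1309 and 835 to 1181 and 1142 in the systemic DPI one, and from 1560 and 1880 to 2345 and 1560 for leaf by light. Members then split 20 and 3 in the local water response and 6 and 17 in the local DPI one, in which CRK21, CRK22 and CRK40 lost their calls (adjusted p of 0.877, 0.129 and 0.360).

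Of 2431 values of named members under alternatives, 2322 kept direction and call, 43 lost a call, 28 gained it and 38 changed sign, 0 of these called. By quantile normalization CRK2 had -0.01 and -0.10 in the local light responses under water and DPI and 0.01 in leaf by light, and CRK13 -0.01 in the systemic DPI comparison. CRK2 had 0.00 with edgeR in the local light response under DPI, and CRK10 0.00 with TMM in the systemic interaction. With a library left out, sign changes lay within these ranges: CRK10 -0.05 to 0.02 and CRK13 -0.22 to 0.09 in the systemic interaction, CRK13 -0.08 to 0.23 for systemic DPI against water, CRK2 -0.10 to 0.01 and CRK28 -0.12 to 0.04 in leaf by light, CRK2 -0.02 to 0.03 in the local DPI light response and -0.03 to 0.09 for systemic against local, CRK29 -0.11 to 0.07 in the local water response, and CRK36 -0.16 to 0.10 and CRK7 -0.06 to 0.03 in the systemic water response.

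Depth limited CRK20, CRK23, CRK26, CRK27, CRK31, CRK38 and CRK39, which were above the floor in all libraries of some groups only, and CRK25, CRK30, CRK32 and CRK33, which were not detectable at this depth. With CRK26 at its lower bound where its control group was at or under the floor, the members' median log2 values were 0.82 in the local and 0.06 in the systemic light response under water and 1.00 for DPI against water in the local leaf.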
